A study of Mus musculus with 8 samples.

Results

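The proteasome is the multi-subunit protease that degrades ubiquitin-tagged proteins, and its genes were followed across hematopoietic stem cells (HSCs, the marrow cells from which all blood lineages derive) sorted by cell size. Genes were taken by symbol, as protein-coding genes of the GENCODE M21 annotation whose symbol begins with Psma to Psmg and a number, which gave 50 of the 50686 genes in the count table. One of them, Psmc3ip, matches by spelling only: its product is known for a role in meiotic recombination and is no proteasome part, so it is given apart at the end. The other 49 were 8 core alpha genes (Psma1 to Psma8), 8 core beta genes (Psmb1 to Psmb7 and Psmb11), 3 immunoproteasome genes (Psmb8, Psmb9, Psmb10), 6 regulatory ATPase genes (Psmc1 to Psmc6), 14 regulatory non-ATPase genes (Psmd1 to Psmd14), 5 activator genes (Psme1, Psme2, Psme2b, Psme3, Psme4), 1 inhibitor gene (Psmf1) and 4 assembly factor genes (Psmg1 to Psmg4).

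In the core particle, rings of alpha subunits gate a chamber formed by rings of beta subunits, 3 of which carry the proteolytic sites. Cells exposed to interferon, and many blood cells at rest, replace those catalytic subunits with the immunoproteasome subunits, which changes the peptides made for antigen presentation. The regulatory particle caps the core: its ATPases unfold the substrate, while its other subunits bind ubiquitin chains and remove them. In HSCs, whose protein synthesis is known to be low, the proteasome is one of the routes that keep protein quality.

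All cells came from the marrow of C57BL/6J mice, with no genotype or treatment given beyond the strain, and were sorted in G0/1 phase after lineage depletion, by the surface proteins CD117, Sca-1, CD150 and CD48. Small HSCs were the bottom 10% by scatter, Medium HSCs were taken from a gate of 10% to either side of the mean size, Large HSCs were the top 10%, and All HSCs skipped the size gate. Every group comprised 2 libraries, which the titles number 1 and 2, with 13698362 counts (Small 2) to 16838448 counts (All 2). The labels do not give the animals' age, say whether animals were pooled, or tie the 2 libraries of a group to different animals. The p-values below therefore reflect the variation among these libraries alone, part of which could be technical.

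Each of the 13 HSC marker genes listed was detected above the count filter, with a summed level of 1758 to 3464 CPM (counts scaled to a common library total) in Small, 1790 to 2788 CPM in Medium, 926 to 2034 CPM in Large and 1664 to 3758 CPM in All. Granulocyte and monocyte markers such as Mpo, Elane and S100a8 were also present, all 13 of 13, with a summed level of 14546 to 49321 CPM in Small, 10212 to 27588 CPM in Medium, 25705 to 48732 CPM in Large and 4732 to 63500 CPM in All. In each of the 4 groups the library numbered 1 had the higher granulocyte and monocyte sum and the lower HSC sum. For that reason the comparisons below are also given within each replicate number. The HSC sum was lowest in Large within both numbers, so the values within a number do not remove that difference between groups. The part of these cells in the proteasome values was not tested. Fewer cells of a type and less RNA per cell cannot be told apart in such bulk libraries.

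The proteasome genes as a family stood higher in Large than in Small HSCs by a modest amount, and none of them passed the test gene by gene. Of the 48 genes above the count filter (Psmb11 was the exception), 48 had a fitted log2 fold change above 0 in Large against Small, against 49.9% of the 16066 genes tested, and 43 of them did so on the log2(TPM + 1) scale. TPM is transcript abundance scaled to a fixed library total, a level per length. The median fold change was 0.41 on the log2 scale, against 0 over all genes, with members from 0.04 to 0.62. On log2(TPM + 1) the median was 0.24 where that of all genes was -0.11, so relative to all genes it was 0.35. Within number 1 the median was 0.33 and within number 2 it was 0.44. In the same comparison 12 of the 13 HSC markers were below 0, with a median of -0.83, and 10 were lower in Large in each of the numbers (30.9% of all genes were). Granulocyte and monocyte markers had 7 of 13 above 0, with a median of 0.05 (-0.30 within number 1 and 0.87 within number 2). B cell markers had 7 of 7 above 0, with a median of 2.15, but -0.49 within number 1 and 2.73 within number 2. Macrophage and dendritic markers had 0 of 9 above 0, with a median of -0.78. Medians of the other lists were 0.12 (erythroid), 0.30 (T and NK cell), 0.03 (megakaryocyte), -0.30 (mast cell and basophil) and 0.05 (endothelial and stromal).

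Higher values in Large than in Small within both replicate numbers were seen for 46 of the 48, all but Psmd3 and Psmf1, against 32.9% of all genes. Both Large libraries lay above both Small libraries for 22 of the 48, against 17.7% of all genes, and for 0 of the 48 were both below, against 14.7%. The members were read from the same libraries and mostly moved together between replicates. Such counts, here and below, are therefore not 48 separate observations. With each gene's log2 CPM taken from its own mean, the family median had a pooled SD between replicates of 0.26. In edgeR's quasi-likelihood test with Benjamini-Hochberg adjustment over all genes, 0 of 48 members were called, as were 0% of all genes, and the smallest adjusted p of a member was 0.975. The model of that test held no term for replicate number, and fits with such a term are given below. At an unadjusted p under 0.05, 2 members were higher, Psmb4 and Psmc4, against 1.77% of all genes. DESeq2 and limma on log2(TPM + 1) also called 0 members in this comparison (other limma settings are given below). The median moved when 1 library was left out: it was 0.20 without Small 2, 0.62 without Small 1 and 0.22 without Large 1.

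**Figure D1:**
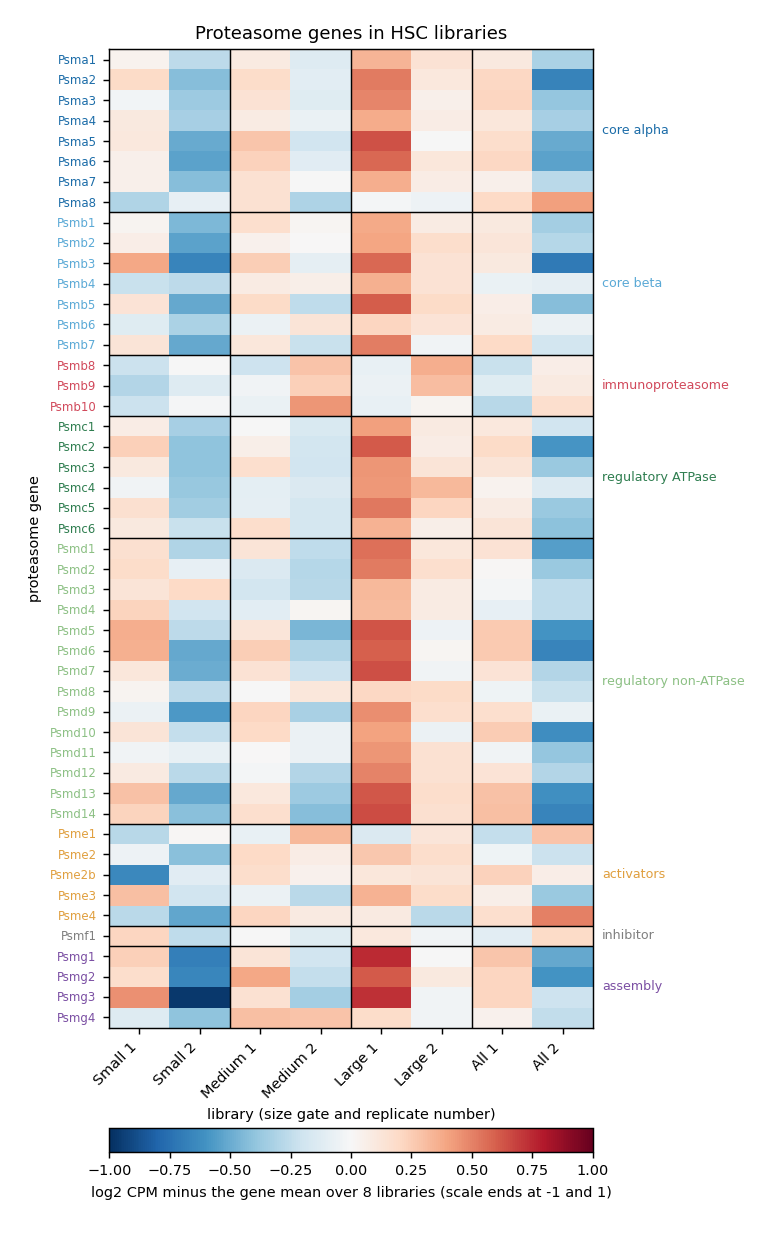
Log2 CPM of each tested proteasome gene (rows, grouped by role) minus its mean over the 8 libraries, by library (columns, size gate and replicate number). Red cells, above the gene's mean, fill most of the Large 1 column, and blue cells fill most of the Small 2 and All 2 columns, while the immunoproteasome rows follow a different order of libraries.

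**Figure D2:**
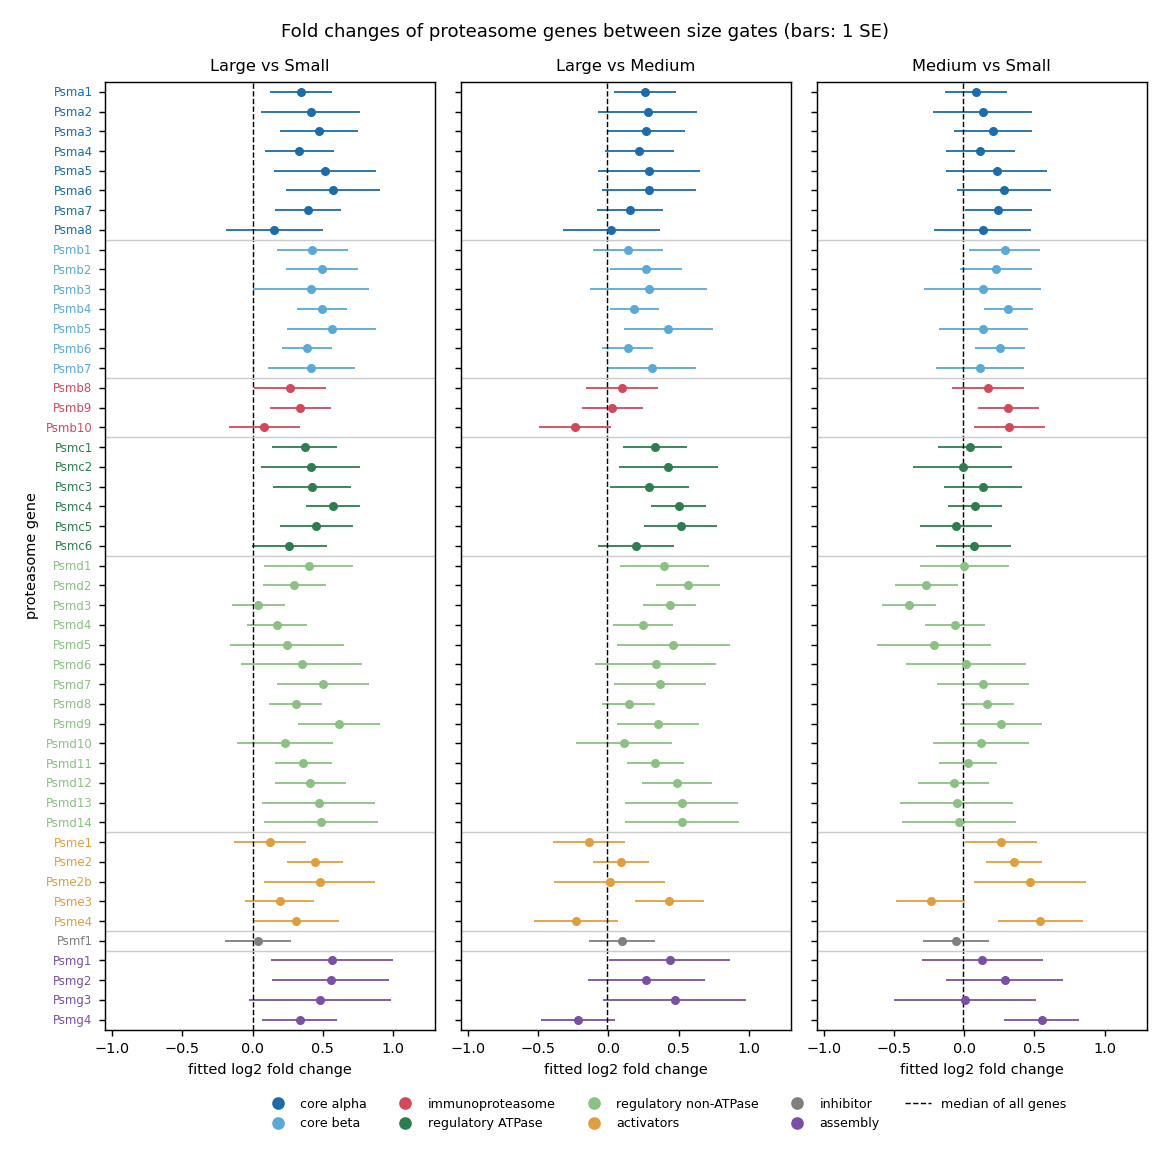
Fitted log2 fold changes of the 48 tested genes in Large against Small, Large against Medium and Medium against Small, with bars of 1 SE and the median of all genes as a dashed line. All points lie above 0 in Large against Small (43 of 48 did on log2(TPM + 1)), as do 44 in Large against Medium and 37 in Medium against Small, and many bars reach close to the dashed line or cross it.

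The beta subunits Psmb5, Psmb6 and Psmb7 hold the chymotrypsin-like, caspase-like and trypsin-like sites of the constitutive core. Psmb5 (chr14:54614119-54618022, minus strand, GRCm38) had 239 and 152 CPM in the 2 Small libraries, 248 and 182 CPM in Medium, 331 and 248 CPM in Large and 227 and 162 CPM in All. Both Large libraries were above both Small ones, though Large 2 was close to Medium 1. The means were 289 ± 58.8 CPM in Large and 196 ± 61.1 CPM in Small (SD, n = 2 each), a fitted log2 fold change of 0.56 (SE 0.32).

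Psmb6 (chr11:70525367-70527858, plus strand) was the steadiest of the 3, with 297 and 259 CPM in Small, 310 and 352 CPM in Medium, 373 and 354 CPM in Large and 341 and 310 CPM in All. In CPM its Large libraries lay above all 6 others, though Large 2 was close to Medium 2. In TPM the Medium 2 library was the highest, at 672 against 629 and 649 in Large. The means of 364 ± 13.6 CPM in Large and 278 ± 26.8 CPM in Small (SD, n = 2 each) gave a log2 fold change of 0.39 (SE 0.18), the lowest among the core beta genes. Psmb7 had 118 and 75.8 CPM in Small, 117 and 92.8 CPM in Medium, 154 and 105 CPM in Large and 124 and 95.2 CPM in All. Here Large and Small overlapped, since the Large library numbered 2 fell below the Small library numbered 1, and the log2 fold change was 0.42 (SE 0.31). Exons of Psmb7 overlap those of Nek6 on the opposite strand, and the sources used here do not say whether counting used strand.

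Promoters of these catalytic genes are shown because the transcription factors Nfe2l1 and Nfe2l2 are known to bind antioxidant response elements at proteasome genes in mammals. Windows of 300 bases, from 250 bases before to 50 after the transcript start, came from RefSeq (GRCm38.p6), which had 44 windows for 41 of the 49 genes. The core searched was TGACNNNGC, on either strand, and its match is in capitals: it begins 47 bases before the start in Psmb5 (chr14:54617946-54618245, minus strand) and 9 bases before it in Psmb6 (chr11:70525107-70525406, plus strand).
Psmb5: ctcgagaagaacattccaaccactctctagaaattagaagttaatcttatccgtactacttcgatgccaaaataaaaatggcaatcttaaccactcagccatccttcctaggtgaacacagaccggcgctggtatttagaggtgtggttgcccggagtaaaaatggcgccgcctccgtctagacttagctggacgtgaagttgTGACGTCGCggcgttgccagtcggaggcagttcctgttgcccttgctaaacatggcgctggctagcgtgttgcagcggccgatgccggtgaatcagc
Psmb6: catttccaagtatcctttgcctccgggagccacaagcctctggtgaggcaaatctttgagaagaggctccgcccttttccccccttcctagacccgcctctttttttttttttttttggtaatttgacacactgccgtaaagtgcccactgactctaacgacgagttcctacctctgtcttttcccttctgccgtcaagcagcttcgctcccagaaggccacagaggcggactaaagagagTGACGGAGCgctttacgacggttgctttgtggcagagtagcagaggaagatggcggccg
The element was found in 6 of the 44 windows (13.6%), those of Psmb5, Psmb6, Psmc6, Psmd12, Psmd9 and Psme4, and in 12.4% of all 32851 promoter windows. CCAAT, with its reverse ATTGG, was in 14 of the 44 (31.8%), against 37.4% of all windows.

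The other core genes followed the same course. All 7 tested core beta genes and all 8 core alpha genes, whose products form the outer rings and the gate, had mean CPM in the order Large above Medium above Small, an order that 33 of all 48 members and 16.5% of all genes showed. Within both replicate numbers 17 of the 48 kept it, against 5.75% of all genes, among them 5 of 8 core alpha and 4 of 7 core beta genes. Median log2 fold changes in Large against Small were 0.40 for core alpha and 0.43 for core beta genes, and both Large libraries were above both Small ones for 5 of 8 and 5 of 7 genes, against 17.7% of all genes.

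Psma6 had the largest fold change of the alpha genes. It had 312 and 208 CPM in Small, 354 and 279 CPM in Medium, 450 and 325 CPM in Large and 347 and 208 CPM in All. Large stood above Small in both libraries, 387 ± 87.9 CPM against 260 ± 73.1 CPM (SD, n = 2 each), a log2 fold change of 0.58 (SE 0.34). Psma8, an alpha subunit known for its role in spermatocytes, was near the bottom of the family with 9.41 to 17.3 TPM. Its CPM values were 11.2 and 13.0 in Small, 15.3 and 11.1 in Medium, 13.6 and 13.3 in the Large libraries and 15.8 and 18.3 in All, with the lowest fold change of the alpha genes, 0.15 (SE 0.35), which was -0.01 on log2(TPM + 1).

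Psmb4 is a structural beta subunit, chosen here after its values were seen. It had 133 and 129 CPM in Small, 164 and 161 CPM in Medium, 198 and 171 CPM in Large and 148 and 146 CPM in All. The 3 size groups did not overlap in either step, and Large against Small gave a log2 fold change of 0.50 (SE 0.17; edgeR unadjusted p = 0.025, adjusted p = 0.975). Psmb11, the beta subunit of thymic cortical epithelium, had 1 count in each of Small 2, Large 1 and Large 2 and 0 counts in the other 5 libraries, and was not tested.

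The immunoproteasome genes had a lower median in Large against Small, 0.27, than the core genes, and their libraries fell in another order. Psmb8 (chr17:34197721-34201454, plus strand), the counterpart of Psmb5, had 357 and 415 CPM in Small, 360 and 507 CPM in Medium, 394 and 534 CPM in Large and 356 and 436 CPM in All. In each group its library numbered 2 was the higher, the opposite of Psmb5. Large and Small overlapped, at 464 ± 99.1 CPM against 386 ± 40.9 CPM (SD, n = 2 each), a log2 fold change of 0.27 (SE 0.26).

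Psmb9 (chr17:34181987-34187764, minus strand), the counterpart of Psmb6, had 126 and 142 CPM in Small, 151 and 182 CPM in Medium, 148 and 191 CPM in Large and 142 and 164 CPM in All. Both Large libraries were above both Small ones, with a log2 fold change of 0.34 (SE 0.22), and both Medium libraries were as well. Its exons overlap those of Tap1, a peptide transporter gene on the opposite strand with 1523 to 3050 counts a library, so reads could have been exchanged between the 2 genes. Psmb10, the counterpart of Psmb7, had 83.5 and 96 CPM in Small, 92.6 and 132 CPM in Medium, 92.0 and 98.4 CPM in Large and 80.0 and 109 CPM in All. It overlapped between Large and Small, with a log2 fold change of 0.08 (SE 0.26) that was -0.05 on log2(TPM + 1), and its highest mean was in Medium.

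On the TPM scale, where genes can be compared with each other, immunoproteasome transcripts were a large part of the catalytic pool in every library. Psmb8, Psmb9 and Psmb10 made up 42.6% and 52.6% of the summed TPM of the 6 catalytic genes in Small, 43.4% and 52.5% in Medium, 38.3% and 49.3% in the Large libraries and 41.4% and 51.6% in All. The share was lowest in Large within each number. The ratio of Psmb8 to Psmb5 was 1.13 and 2.06 in Small, 1.08 and 2.11 in Medium, 0.875 and 1.64 in the Large libraries and 1.18 and 2.02 in All. Within each number it was again lowest in Large, and the libraries numbered 1 (0.875 to 1.18) did not overlap those numbered 2 (1.64 to 2.11). Psmb10 over Psmb7 was also lowest in Large within each number, with 1.06 and 1.87 in Small, 1.27 and 2.12 in Medium, 0.931 and 1.41 in the Large libraries and 0.975 and 1.86 in All. For Psmb9 over Psmb6 the range was narrower, from 0.329 in Large 1 to 0.457 in Large 2. This ratio was lowest in Large within number 1 but highest in Large within number 2, where all values lay between 0.452 and 0.457.

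**Figure D3:**
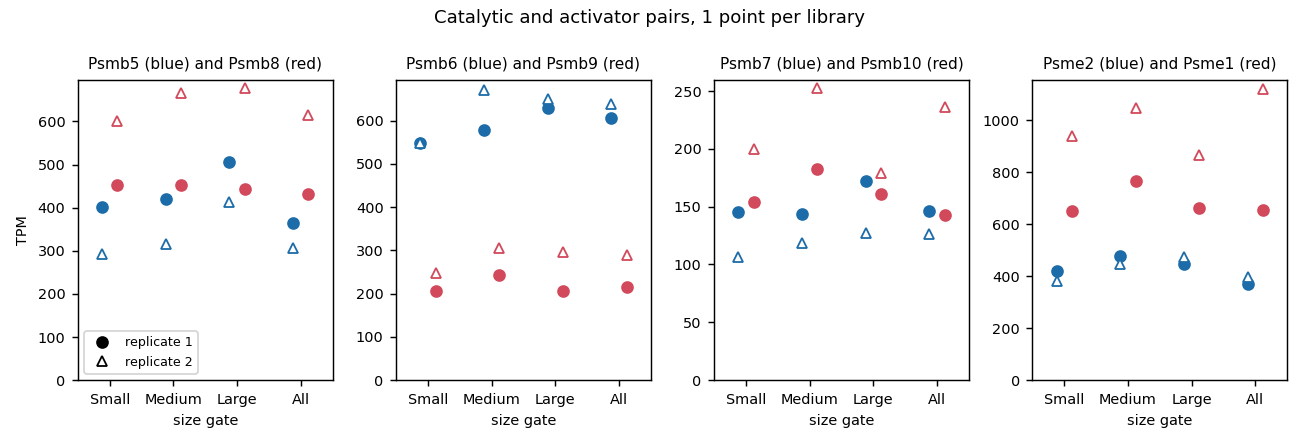
TPM of each constitutive catalytic gene (blue) with its immunoproteasome counterpart (red), and of Psme2 (blue) with Psme1 (red), by size gate, 1 point per library (filled circles number 1, open triangles number 2). In Psmb5 and Psmb8 the triangles are wide apart in all 4 groups (ratios 1.64 to 2.11) and the circles close together (0.875 to 1.18).

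The interferon activator subunits Psme1 and Psme2 form a ring that opens the core without ATP. The interferon regulatory factor element searched, GAAANNGAA or its reverse TTCNNTTTC, was in 7 of the 44 promoter windows (15.9%; Psmb3, Psmb4, Psmc2, Psmd4, Psmd9, Psme1 and Psmg4) and in 8.56% of all windows. The Psme1 window (chr14:55578244-55578543, plus strand) is shown with its match in capitals, 10 bases after the start, beside that of Psmb9 (chr17:34187281-34187580, minus strand), in which the capitals mark ATTGG, 8 bases before the start.
Psme1: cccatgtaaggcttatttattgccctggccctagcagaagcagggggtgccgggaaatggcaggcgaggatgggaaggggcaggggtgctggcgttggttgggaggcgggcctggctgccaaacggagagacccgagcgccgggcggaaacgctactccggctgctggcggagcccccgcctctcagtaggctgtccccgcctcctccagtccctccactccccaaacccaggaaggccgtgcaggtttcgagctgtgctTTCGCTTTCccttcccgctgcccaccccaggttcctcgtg
Psmb9: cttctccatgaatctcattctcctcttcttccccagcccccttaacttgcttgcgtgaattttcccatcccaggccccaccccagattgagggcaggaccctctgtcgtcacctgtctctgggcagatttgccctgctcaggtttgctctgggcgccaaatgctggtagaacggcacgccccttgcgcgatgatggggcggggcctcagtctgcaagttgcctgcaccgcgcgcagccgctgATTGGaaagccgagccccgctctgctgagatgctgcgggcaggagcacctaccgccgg

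Psme1 had the highest mean level of the 49 genes, 838 ± 185 TPM (mean and SD over the 8 libraries). Psma3 was above it in Large 1 (868 against 661 TPM) and in All 1 (746 against 655 TPM). Psma7 (729 TPM) and Psmb2 (691 TPM) were also above it in Large 1. Psme1 had 271 and 333 CPM in Small, 312 and 412 CPM in Medium, 299 and 359 CPM in Large and 279 and 401 CPM in All. The library numbered 2 was higher in each group, as for the 3 immunoproteasome genes, which makes 4 of the 48 members, against 22.9% of all genes. For 36 members the library numbered 2 was lower in each group, against 23.6%. Psme1 overlapped between Large and Small, with a log2 fold change of 0.12 (SE 0.26) that was -0.05 on log2(TPM + 1). Its partner Psme2 had 206 and 159 CPM in Small, 244 and 223 CPM in Medium, 256 and 240 CPM in Large and 206 and 183 CPM in All. Both Large and both Medium libraries lay above both Small ones, and Large against Small gave 248 ± 11.3 CPM against 182 ± 32.8 CPM (SD, n = 2 each), a log2 fold change of 0.45 (SE 0.20).

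Psme3, the nuclear activator subunit, had 407 and 290 CPM in Small, 317 and 274 CPM in Medium, 422 and 377 CPM in Large and 344 and 255 CPM in All. Large and Small overlapped (log2 fold change 0.19, SE 0.25), while both Large libraries lay above both Medium ones. Psme4, which activates the core toward acetylated histones, was low at 3.58 to 8.31 TPM, with 17.2 and 14.4 CPM in Small, 24 and 22 CPM in Medium, 22 and 17.2 CPM in Large and 23.2 and 29.4 CPM in All. Small had the lowest mean, and the fold change in Large against Small, 0.31 (SE 0.30), was -0.05 once a GC content and length trend was removed. That trend used the middle length of a gene's annotated transcripts, 582 bases for Psme4, which need not be the one expressed. Psme2b, a copy of Psme2 whose reads may have been split with it, had 5.83 and 8.43 CPM in Small, 10.3 and 9.42 CPM in Medium, 9.86 and 10.0 CPM in Large and 10.7 and 9.57 CPM in All. Exons of Psme2b also overlap those of 9930111J21Rik1 on the same strand, with 41 to 192 counts a library.

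Psmf1 encodes an inhibitor of the core. It had 90.4 and 65.5 CPM in Small, 77.9 and 71.8 CPM in Medium, 83.8 and 76.3 CPM in Large and 72.6 and 88.9 CPM in All. All groups overlapped, and its fold change in Large against Small, 0.04 (SE 0.23), was the lowest of the family and -0.05 on log2(TPM + 1).

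Among the regulatory ATPases, which unfold substrates and thread them into the core, the median log2 fold change in Large against Small was 0.42, and both Large libraries were above both Small ones for 4 of 6, against 17.7% of all genes. Psmc4 led them with 224 and 176 CPM in Small, 213 and 207 CPM in Medium, 308 and 287 CPM in Large and 234 and 208 CPM in All. Its Large libraries stood above all 6 others. The means were 297 ± 15.2 CPM in Large and 200 ± 33.7 CPM in Small (SD, n = 2 each), with a log2 fold change of 0.57 (SE 0.19; edgeR unadjusted p = 0.021, adjusted p = 0.975) in Large against Small. Psmc6 was the lowest, with 107 and 85.8 CPM in Small, 113 and 88.7 CPM in Medium, 127 and 104 CPM in Large and 109 and 75.3 CPM in All. Its groups overlapped, and the log2 fold change of 0.26 (SE 0.27) was -0.06 with the GC content and length trend removed.

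The 14 non-ATPase genes had a median of 0.36 in Large against Small, and both Large libraries were above both Small ones for 4 of them, against 17.7% of all genes. Psmd9, known as an assembly chaperone of the base, had the largest fold change of the family. Its values were 53.2 and 37.1 CPM in Small, 64.3 and 44.2 CPM in Medium, 76.3 and 62.2 CPM in Large and 62.0 and 52.8 CPM in All. Large lay above Small in both libraries, 69.3 ± 9.99 CPM against 45.2 ± 11.4 CPM (SD, n = 2 each), a log2 fold change of 0.62 (SE 0.29).

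Psmd14 is the deubiquitinase that removes ubiquitin chains before a substrate enters. It had 213 and 136 CPM in Small, 205 and 136 CPM in Medium, 286 and 204 CPM in Large and 224 and 115 CPM in All. The library numbered 1 was higher in each group, and Large and Small overlapped, with a log2 fold change of 0.49 (SE 0.41). Psmd4, a ubiquitin receptor, had 210 and 158 CPM in Small, 168 and 183 CPM in Medium, 225 and 191 CPM in Large and 170 and 152 CPM in All. It also overlapped between Large and Small, with a log2 fold change of 0.18 (SE 0.21).

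Psmd2 and Psmd3, a scaffold that also binds ubiquitin-like domains and a lid subunit, had their lowest levels of the size series in Medium. Psmd2 had 562 and 467 CPM in Small, 448 and 405 CPM in Medium, 709 and 556 CPM in Large and 497 and 381 CPM in All. Psmd3 had 166 and 174 CPM in Small, 134 and 125 CPM in Medium, 190 and 160 CPM in Large and 149 and 127 CPM in All. In Large against Small both overlapped, with log2 fold changes of 0.30 (SE 0.22) for Psmd2 and 0.04 (SE 0.19) for Psmd3, which was -0.14 on log2(TPM + 1).

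The 4 assembly factors help alpha rings form before the core closes. They had the highest median of the sub-lists in Large against Small, 0.52, together with a wide spread between replicates. Psmg1 had 69.0 and 36.5 CPM in Small, 64.1 and 51.2 CPM in Medium, 98.1 and 58.2 CPM in Large and 70.9 and 41.0 CPM in All. Psmg2 had 95.6 and 53.9 CPM in Small, 111 and 71.9 CPM in Medium, 130 and 90.4 CPM in Large and 98.3 and 56.0 CPM in All. In both genes the library numbered 1 was higher in each group and Large overlapped Small, with log2 fold changes of 0.57 (SE 0.43) for Psmg1 and 0.56 (SE 0.42) for Psmg2.

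Psmg3 had 50.1 and 18.6 CPM in Small, 40.4 and 28.8 CPM in Medium, 60.4 and 35.5 CPM in Large and 42.2 and 31.5 CPM in All, a log2 fold change of 0.48 (SE 0.51) that was -0.06 without Small 2. Psmg4 had 24.2 and 20.1 CPM in Small, 32.8 and 32.3 CPM in Medium, 30.2 and 25.8 CPM in Large and 27.3 and 22.4 CPM in All. Large lay above Small in both libraries (log2 fold change 0.34, SE 0.27) and below Medium in both. It was the 1 member of the 48 with both Large libraries below both Medium libraries, against 17.2% of all genes.

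Large HSCs also stood above Medium HSCs for most of the family. The median log2 fold change was 0.28, against -0.01 for all genes, and 44 of 48 members were above 0, against 48.8% of all genes, with Psmb10, Psme1, Psme4 and Psmg4 below (38 were above 0 on log2(TPM + 1)). Within number 1 the median was 0.34 and within number 2 it was 0.21. Members higher in Large within both numbers were 40 of the 48, against 32.9% of all genes, and 4 were lower within both, against 33%. Both Large libraries were above both Medium ones for 16, against 18.3%. In edgeR's quasi-likelihood test 0 members and 0% of all genes were called (smallest adjusted p 0.989), and 2 members, Psmc4 and Psmd2, were higher at an unadjusted p under 0.05, against 0.878% of all genes. DESeq2 and limma also called 0 members. The median was 0.07 without Large 1, 0.13 without Medium 2 and 0.47 without Large 2. Markers of other cells moved with this comparison. All 13 granulocyte and monocyte markers were above 0, with a median of 0.91, and 12 were higher in Large in each of the numbers (32.9% of all genes were). All 13 HSC markers were below 0, with a median of -0.70, and 11 were lower in each (33% of all genes were). B cell markers had a median of 1.40, but -0.96 within number 1 and 1.88 within number 2. Mast cell and basophil markers had a median of 1.08, and erythroid markers 0.67. Medians were -0.11 for T and NK cell, -0.34 for megakaryocyte, -0.58 for endothelial and stromal and -0.88 for macrophage and dendritic markers. The part of these lists in the proteasome values was not tested.

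Medians in Large against Medium, given as a description with no test between sub-lists, were 0.38 for the ATPases and 0.38 for the non-ATPases, 0.35 for the assembly factors, 0.27 for core alpha, 0.27 for core beta, 0.03 for the immunoproteasome and 0.01 for the activators. The inhibitor Psmf1 had 0.10. Psmd2 averaged 632 ± 108 CPM in Large and 427 ± 30.4 CPM in Medium (SD, n = 2 each), a log2 fold change of 0.57 (SE 0.23), and Psmc4, at 297 ± 15.2 CPM in Large and 210 ± 4.38 CPM in Medium, had 0.50 (SE 0.19). Psmd3 averaged 175 ± 20.8 CPM in Large and 129 ± 6.18 CPM in Medium, a log2 fold change of 0.44 (SE 0.19). Psmb10 at -0.24 (SE 0.26) and Psme1 at -0.14 (SE 0.26) were below 0, and both changed sign, to 0.0032 and 0.04, without Medium 2.

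Medium against Small gave the smallest and least settled difference of the 3 size steps. The median log2 fold change was 0.13, against -0.01 for all genes, but it was 0.02 within number 1 and 0.25 within number 2, and it was -0.09 without Small 2, -0.03 without Medium 1, 0.34 without Small 1 and 0.25 without Medium 2. Of the 48 members 37 were above 0, against 49% of all genes (25 with the GC content and length trend removed), 24 were higher within both numbers, against 30.1%, and 6 lower, against 29.3%. Both Medium libraries were above both Small ones for 7 members (Psmb4, Psmb6, Psmb9, Psme2, Psme2b, Psme4 and Psmg4), against 16.6% of all genes, and below them for 2 (Psmd2 and Psmd3), against 14.3%. EdgeR called 0 members and 0% of all genes, and 0 members were higher at an unadjusted p under 0.05, against 2.81% of all genes; DESeq2 and limma called 0 members as well. Medians were 0.36 for activators, 0.31 for immunoproteasome, 0.23 for core beta and 0.17 for core alpha genes, against 0.05 for ATPases and -0.02 for non-ATPases.

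Large against All, in which the unfractionated cells serve as the reference, gave a median log2 fold change of 0.35, against -0.03 for all genes. Of the 48 members 43 were above 0, against 47.5% of all genes (41 on log2(TPM + 1)), and 42 were higher within both numbers, against 31.2%. Both Large libraries were above both All libraries for 19, against 15.8%, and below them for 2, Psma8 and Psme4, against 16.2%. EdgeR called 0 members and 0% of all genes, with a smallest adjusted p of 0.885, and Psmd11 was the 1 member with an unadjusted p under 0.05, higher in Large, against 1.34% of all genes. DESeq2 and limma on log2(TPM + 1) called 0 members (other limma settings are given below). The median was 0.22 without Large 1, 0.62 without All 1 and 0.17 without All 2. All 13 HSC markers were lower in Large in each of the numbers (32.6% of all genes were), with a median of -1.02. Granulocyte and monocyte markers had 7 of 13 above 0, with a median of 1.06. B cell markers had a median of 2.45, but -1.11 within number 1 and 3.72 within number 2. Medians were 1.42 for mast cell and basophil, 0.79 for endothelial and stromal and 0.62 for erythroid markers. They were 0.15 for T and NK cell, -0.08 for megakaryocyte and -0.80 for macrophage and dendritic markers. The part of these lists was not tested.

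Medium against All gave a median of 0.09, against -0.02 for all genes, with 32 of 48 members above 0 (47.8% of all genes), 19 higher and 7 lower within both numbers (24.6% and 24.9%), and 4 with both Medium libraries above both All libraries and 1 with both below (11.3% and 11.2%). Its sign turned without Medium 1 (-0.07) and without All 2 (-0.13), and it was 0.23 without Medium 2 and 0.35 without All 1. Small against All gave -0.04, the same as the median of all genes, and 0.03 on log2(TPM + 1). It was -0.30 without Small 1 and -0.23 without All 2, but 0.17 without Small 2 and 0.26 without All 1. There were 18 of 48 members above 0 (46.5%), 10 higher and 23 lower within both numbers (26.7% and 31.3%), and 1 with both Small libraries above and 6 with both below (12% and 14.8%). In each of these, edgeR, DESeq2 and limma called 0 members, and edgeR called 0% of all genes. At an unadjusted p under 0.05, 0 members were higher in Medium than in All (0.79% of all genes) and 0 in Small than in All (1.65%), where Psme4 was the 1 member lower. These comparisons share the All libraries. Over the 4 groups, 41 of the 48 members had their highest mean CPM in Large, against 28% of all genes. The 7 others were Psma8, Psmb10, Psme1, Psme2b, Psme4, Psmf1 and Psmg4.

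Summed over the 49 genes, TPM was 12951 and 11484 in Small, 13397 and 12615 in Medium, 14914 and 13639 in the Large libraries and 12600 and 11737 in All. Both Large libraries lay above all 6 others. The means were 12217 ± 1037 TPM in Small, 13006 ± 553 TPM in Medium, 14277 ± 902 TPM in Large and 12168 ± 610 TPM in All (SD, n = 2 each). As a share of all TPM that is 1.22% in Small, 1.3% in Medium, 1.43% in Large and 1.22% in All. The Large mean was 1.17 times the Small mean, and the ratio was 1.15 within number 1 and 1.19 within number 2. By sub-list the ratio of means was 1.21 for core alpha, 1.23 for core beta, 1.22 for ATPase, 1.15 for non-ATPase and 1.27 for assembly genes. It was 1.06 for immunoproteasome genes, 1.03 for activator genes and 0.96 for the inhibitor Psmf1. Summed TPM of the 3 immunoproteasome genes was 811 and 1154 in Large and 812 and 1050 in Small. These are shares of the transcripts in a library, and RNA per cell was not measured.

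**Figure D4:**
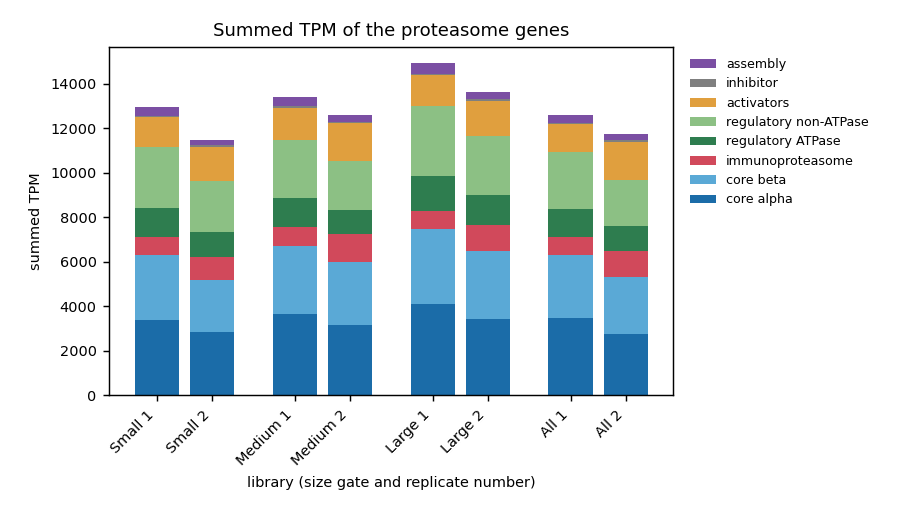
Summed TPM of the proteasome genes in each of the 8 libraries, stacked by role. The Large bars reach 14914 and 13639 TPM, above the 6 others (11484 to 13397 TPM), while the immunoproteasome segment differs more between numbers 1 and 2 than between size groups.

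Levels within the family differed by role. The median gene of a sub-list had a mean over the 8 libraries of 463 TPM for core alpha, 376 TPM for core beta, 251 TPM for immunoproteasome, 223 TPM for ATPase, 192 TPM for non-ATPase, 208 TPM for activator and 84.7 TPM for assembly genes. After Psme1, the highest means were those of Psma3 at 679 TPM, Psma7 at 638 TPM and Psmb6 at 609 TPM, whose ranges over libraries overlapped. At the low end were Psme4 at 5.63 TPM, Psma8 at 12.1 TPM and Psme2b at 16.5 TPM. By annotation the tested members had a median transcript length of 879 bases, against 1547 for all genes tested, and a like GC content, 49.98% against 49.5%. This length is the middle one of a gene's annotated transcripts, which need not be the one expressed. For Psme4 it was 582 bases, with 17.2 CPM but 3.71 TPM in Small 1. Psma1, at 959 bases, had 404 CPM and 500 TPM in that library.

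Other genes of the ubiquitin-proteasome pathway, from a list of 26 of which 25 were tested, were divided in Large against Small. A log2 fold change above 0 was found for 11 of them, against 49.9% of all genes, and one below 0 for 14. Their median was -0.03, and edgeR called 0 of the 25 (0 at an unadjusted p under 0.05). Both Large libraries lay above both Small ones for 5 of the 25, against 17.7% of all genes, and below them for 6, against 14.7%. Sem1, a small lid subunit outside the Psm naming, had 378 and 224 CPM in Large and 257 and 150 CPM in Small, a log2 fold change of 0.57 (SE 0.44). Pomp, which matures the core, had 240 and 211 CPM in Large and 200 and 148 CPM in Small, a log2 fold change of 0.37 (SE 0.22). Adrm1, a ubiquitin receptor of the base, had 124 and 128 CPM in Large and 112 and 93.4 CPM in Small, a log2 fold change of 0.30 (SE 0.19). Pomp and Adrm1, 2 of the 5 with both Large libraries above, did not overlap between Large and Small, and Sem1 did. Nfe2l1, the transcription factor that restores proteasome genes when the protease is inhibited, had 60.8 and 80.6 CPM in Large and 85.0 and 94.8 CPM in Small. Both of its Large libraries lay below both Small libraries, with a log2 fold change of -0.35 (SE 0.29).

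Psmc3ip, set apart at the opening, had 37.1 and 19.1 CPM in Small, 30.9 and 21.2 CPM in Medium, 51.1 and 41.3 CPM in Large and 40.3 and 18.1 CPM in All. Its Large libraries lay above the 6 others, and edgeR did not call it. Of its neighbours, Mlx overlaps its exons on the opposite strand with 743 to 1522 counts a library.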

How the data were processed

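RNA was measured in 8 HSC libraries made with a low-input cDNA kit. Per the submitters' processing notes, STAR 2.5.3a, RSEM 1.3.0, SAMtools 1.3 and mm10 were used. The authors deposited estimated counts, 1 per gene and library, as unscaled whole numbers, and log2(TPM + 1) values. Of 50686 gene IDs, 50462 matched GENCODE M21 (GRCm38, the assembly of mm10), the source of names and coordinates. The authors' annotation release and counting strand are not given in the sources used here. RSEM splits reads between similar genes, so values of Psme2 and Psme2b are uncertain; 4 Psmb pseudogenes held at most 13 counts.

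EdgeR 4.0.16 (R 4.3.3) ran its quasi-likelihood test on the counts with TMM scaling, filterByExpr (minimum count 10; 16066 genes), robust estimation and a model of group alone, fitted to all 8 libraries (4 residual degrees of freedom). P-values are two-sided, Benjamini-Hochberg adjusted over all genes, with a threshold of 0.05. CPM values are TMM-scaled; levels between genes use TPM. Higher within both numbers means a positive difference of log2 CPM in libraries 1 and in libraries 2. The script was tested on simulated counts. Alternatives used DESeq2 1.42.0 and limma 3.58.1.

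Genes given in every library were, by rule, the catalytic subunits and their immunoproteasome counterparts, activators, inhibitor, Psmd2, Psmd4, Psmd14, assembly factors, the highest and lowest fold change in Large against Small of 4 sub-lists. By the same rule, 4 pathway genes were named, with values in Large and Small. Members and lists were chosen with earlier results of these data known. Summed levels of the other marker lists, as the lower and higher library of a group, were 353 to 2167 (Small), 431 to 1549 (Medium), 632 to 2534 (Large) and 398 to 1445 CPM (All) for erythroid genes. In the same order of groups they were 297 to 1207, 871 to 1166, 242 to 4042 and 207 to 414 CPM for B cell genes, and 171 to 642, 192 to 477, 354 to 974 and 54.0 to 392 CPM for T and NK cell genes. They were 154 to 455, 184 to 508, 265 to 275 and 212 to 297 CPM for megakaryocyte genes, and 470 to 870, 426 to 971, 216 to 684 and 309 to 987 CPM for macrophage and dendritic genes. They were 191 to 1478, 94.5 to 519, 499 to 895 and 29.5 to 398 CPM for mast cell and basophil genes, and 134 to 165, 169 to 170, 117 to 150 and 89.0 to 104 CPM for endothelial and stromal genes. Pax5, Cd8a and Col1a1 failed the count filter, and none of the listed markers was at 0 in all libraries. A list of interferon antigen processing genes is not reported here.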

Additional observations from a re-analysis of the deposited data

How the results depend on the processing

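No proteasome gene was called in any comparison with RLE size factors, no count filter, DESeq2, limma on log2(TPM + 1), only the 2 groups compared, the replicate block, the GC content and length trend removed without the block, or any 1 library left out. Same-numbered libraries deviated together (r of 0.36 to 0.44 across genes over the 6 pairs of groups), but the labels name no shared animal or day. With the replicate block, 33 of 48 members had an unadjusted p under 0.05 in Large against Small (median log2 fold change 0.41), as did 2791 of all 16066 genes, and 19 in Large against Medium (0.27), as did 2380 of all genes, with 0 called in each. With the replicate block and the GC content and length trend removed together, 2 members were called in Large against Small, Psmb5 (0.70, adjusted p = 0.038 by limma) and Psmc4 (0.67, adjusted p = 0.047), and 1 in Large against All; over all genes that fit called 198 in Large against Small, 193 in Large against Medium, 467 in Large against All and 1 in Small against All.

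Over all genes edgeR called 0 in each comparison. Without the count filter it called 55 in Large against Small, 58 in Large against Medium, 73 in Medium against Small, 121 in Large against All, 48 in Medium against All and 69 in Small against All, and DESeq2 called 12, 2, 46, 8, 6 and 28 in the same order. Limma on log2(TPM + 1) called 1 each in Large against Small, Large against Medium and Large against All. Unadjusted p under 0.05 held for 506, 301, 695, 504, 262 and 637 genes in edgeR's test. The causes of these differences were not tested.

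Member medians with 1 library left out ran from 0.20 to 0.62 in Large against Small, 0.07 to 0.47 in Large against Medium, -0.09 to 0.34 in Medium against Small, 0.17 to 0.62 in Large against All, -0.13 to 0.35 in Medium against All and -0.30 to 0.26 in Small against All, the upper ends of the last 2 without All 1. On log2(TPM + 1), Large against Small was below 0 for Psma8 (-0.012), Psmb10 (-0.046), Psmd3 (-0.14), Psme1 (-0.047) and Psmf1 (-0.052). With the GC content and length trend removed it was below 0 for Psma8 (-0.072), Psmc6 (-0.058) and Psme4 (-0.053), with or without the block. The length in that trend was the middle annotated one of each gene, and these values depend on it. With 1 library left out, ranges crossed 0 in Large against Small for Psmb10 (-0.012 to 0.19), Psmd3 (-0.084 to 0.16), Psmd4 (-0.015 to 0.40), Psme1 (-0.016 to 0.28), Psme3 (-0.029 to 0.46), Psmf1 (-0.17 to 0.29) and Psmg3 (-0.063 to 1.36), and in Large against Medium for Psmb10 (-0.47 to 0.0032) and Psme1 (-0.32 to 0.039). A group left with 1 library is assumed to vary like the others. Of 544 alternative values of named genes, 520 kept direction and side of the threshold. Only Psmb11 of the 49 genes, with at most 1 count a library, failed the count filter.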

Other observations

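The libraries numbered 2 were compared with those numbered 1, a comparison chosen after the values were seen. In the edgeR fit with group and replicate number, the term for number 2 against number 1 was called for 32 of the 48 members, 30 lower (against 12.1% of all genes) and 2 higher (against 12.5%). Their median log2 fold change was -0.33, and 36 members were lower in the library numbered 2 in all 4 groups, against 23.6% of all genes. Among those lower were the assembly factors Psmg1 (-0.70, SE 0.13, adjusted p = 0.0075) and Psmg2 (-0.69, SE 0.10), the deubiquitinase Psmd14 (-0.67, SE 0.10) and the catalytic subunit Psmb5 (-0.50, SE 0.08).

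Members higher in the library numbered 2 in all 4 groups were the 3 immunoproteasome genes and Psme1, against 22.9% of all genes. Psmb8 (0.36, SE 0.08, adjusted p = 0.015) and Psme1 (0.37, SE 0.08, adjusted p = 0.014) were called, while Psmb9 (0.25, adjusted p = 0.065) and Psmb10 (0.31, adjusted p = 0.071) were not. The HSC and the macrophage and dendritic marker sums were also higher in the library numbered 2 of each group. The granulocyte and monocyte, erythroid, and T and NK cell sums were lower. In the same fit medians were -2.23 for erythroid, -1.47 for T and NK cell and -2.58 for mast cell and basophil markers. They were 0.83 for macrophage and dendritic and 1.77 for B cell markers. The part of these lists in these differences was not tested, and the labels do not say what the number stands for.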
